A study of Mus musculus with 12 samples.

Results

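A set of 10 Notch pathway genes, all protein-coding, was followed through sorted cells of the gastrulating mouse embryo: the target genes Hes1, Hes5, Hes7, Hey1, Hey2 and Heyl, the Fringe enzymes Lfng and Mfng, the feedback gene Nrarp and the Deltex ligase gene Dtx1. They were found by symbol through their Ensembl identifiers, and all 10 were present among the 38924 genes of the count tables. The series holds 12 RNA-seq libraries, 3 from each of 4 cell types sorted from E7.25 embryos. All came from a mouse line carrying Foxa2Cre and Rosa26-YFP, in which Cre is driven by the endoderm and organizer gene Foxa2 and switches on yellow fluorescent protein (YFP) for good, so that YFP records past as well as present Foxa2 activity. The groups were Foxa2Cre:YFP+ cardiac mesoderm, which the labels call ventricular, Foxa2Cre:YFP- cardiac mesoderm, called non-ventricular, endoderm sorted on EPCAM and hematopoietic mesoderm sorted on KDR. The series concerns Notch activation and cardiac commitment. The labels do not say how many embryos went into a library or whether libraries of a type came from separate litters, so the p-values measure only the spread between these libraries.

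Notch signaling runs between touching cells. A Delta or Jagged ligand on one cell binds a Notch receptor on the next, the receptor is cut, and its intracellular part enters the nucleus and joins the DNA-binding protein RBPJ. The best known genes switched on in this way encode the HES and HEY proteins, basic helix-loop-helix repressors. Fringe enzymes add sugars to the Notch receptor and shift its response between Delta and Jagged ligands, NRARP binds the active complex and limits it, and DTX1 is a ubiquitin ligase that binds the receptor. In the mesoderm, Hes7 and Lfng are known for their oscillation in the somite-forming tissue, and Hey1 and Hey2 for their roles in heart and vessel formation.

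The letters to which RBPJ binds were looked for next to the start sites, since they are shared by some of these genes and not by others. RefSeq promoter windows on GRCm38.p6, from 250 bases before to 50 bases after the start site, were found for 6 of the 10 genes (Hes5, Hes7, Hey2, Lfng, Nrarp and Dtx1). The RBPJ core TGGGAA or its reverse TTCCCA occurred in 4 of these 6 windows and in 25.6% of all 32851 windows of this length. Each stretch below is 30 bases on the gene's strand with the core in capitals. It is named by gene and by the distance of the core's first base from the RefSeq start site. In the GENCODE M21 annotation, used for the gene positions below, Hes7, Hey2, Lfng and Dtx1 begin further upstream. The Hey2 stretch at -3 and the whole Dtx1 window lie inside the gene there.
Hes5 at -226 (chr4:154960685-154960714, plus strand): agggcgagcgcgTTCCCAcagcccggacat
Hes5 at -82 (chr4:154960829-154960858, plus strand): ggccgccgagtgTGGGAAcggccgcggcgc
Hes7 at -180 (chr11:69120261-69120290, plus strand): tcctcccctcacTTCCCAcatttggggcta
Hey2 at -207 (chr10:30842973-30843002, minus strand): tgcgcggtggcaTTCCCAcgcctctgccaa
Hey2 at -3 (chr10:30842769-30842798, minus strand): tgggctgcagcgTGGGAAagaacctccagg
Lfng at -135 (chr5:140607194-140607223, plus strand): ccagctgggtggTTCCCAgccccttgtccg
Lfng at -108 (chr5:140607221-140607250, plus strand): ccgtatcccacgTGGGAAggagagatctcc
Hes5, Hey2 and Lfng held 2 cores each, where 3.79% of all windows held 2 or more, and Hes7 held 1. In each of these 3 genes one core was on each strand. The windows of Nrarp and Dtx1 held no core. The longer form GTGGGAA or TTCCCAC was in the same number of windows, 4 of 6, and in 6.38% of all windows. A match is a description of the letters and does not show that the factor binds.

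The upstream sequence of Lfng is shown in full up to its first annotated exon, because its second core overlaps an E-box, CACGTG, the kind of site that basic helix-loop-helix proteins bind. That of Hes5 is shown beside it, because its 2 cores lie in opposite orientation near a gene that was hardly detected. Capitals mark the RBPJ cores.
Lfng (chr5:140607091-140607319, plus strand): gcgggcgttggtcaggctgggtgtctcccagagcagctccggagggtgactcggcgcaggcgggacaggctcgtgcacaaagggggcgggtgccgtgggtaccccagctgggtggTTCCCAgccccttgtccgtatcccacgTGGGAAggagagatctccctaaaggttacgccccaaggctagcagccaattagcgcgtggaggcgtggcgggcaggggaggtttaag
Hes5 (chr4:154960673-154960922, plus strand): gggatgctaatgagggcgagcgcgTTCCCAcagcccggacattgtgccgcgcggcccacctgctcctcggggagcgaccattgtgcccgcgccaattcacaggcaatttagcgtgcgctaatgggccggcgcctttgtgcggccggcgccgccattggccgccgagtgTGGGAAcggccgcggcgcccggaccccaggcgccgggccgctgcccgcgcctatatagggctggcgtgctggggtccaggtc
The E-box of Lfng began at -112, and Nrarp held one at -108 without a core. E-boxes of these letters were in 7.15% of all windows.

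The libraries held 4472800 to 7888631 gene counts, so that 3 counts, the floor used here, stood for 0.357 to 0.723 CPM (counts per 1000000, with library sizes scaled by the trimmed-mean or TMM method). Such limits and the count intervals below reflect counting alone, as the libraries were amplified and carry no molecular identifiers. Genes with at least 1 count numbered 18547 to 18618 in endoderm and 12484 to 16078 in the other libraries. All 10 cardiac mesoderm markers exceeded 3 counts in every YFP+ cardiac library, 9 of 10 did so in the YFP- libraries, 7 of 10 in endoderm and 5 of 10 in hematopoietic mesoderm. Their summed level was 1417 to 1834 CPM in the cardiac libraries and 885 to 1709 CPM in the hematopoietic ones, which overlapped, against 123 to 210 CPM in endoderm. All 11 endoderm markers passed 3 counts in every endoderm library, and 6 of 11 did so in each other type. They summed to 2996.5 to 6159 CPM in endoderm and to at most 246 CPM elsewhere. Of 12 hematopoietic and endothelial markers, 6 passed 3 counts in every hematopoietic library, 5 in endoderm, 4 in the YFP- and 3 in the YFP+ fraction. Their sum was 1090 to 1898 CPM in hematopoietic mesoderm and at most 372 CPM elsewhere, and the embryonic globin gene Hba-x was at 0 in every type. Hematopoietic replicate 3 stood apart in part of the markers: it held at most 1 count each of Gata1, Gfi1b, Klf1, Hbb-bh1 and Pecam1. It was the highest of its type in Hand1 (417 CPM), Mixl1 (363), Cdh1 (72.5) and Epcam (68.9). That held also for the hematopoietic and endothelial marker Etv2 (42.6). Pdgfra, Kdr, Gata4, Smarcd3 and Isl1 of the cardiac list and T of the primitive streak list were highest there too. Other markers of these lists went the other way. Myl7 was at 1.26 CPM there against 25.5 and 18.2 in replicates 1 and 2. Mesp1 and Tbx5 were at 0 there, and Wnt3 of the streak list was lowest there (5.67 CPM). Tal1 (270 CPM), Runx1 (512), Lmo2 (113) and Itga2b (6.09) were lowest there but still read, and Cdh5 was at 146 CPM. Of the endoderm list, Hhex (70.6 CPM), Cer1 (3.15) and Cubn (1.05) were lowest in that library, and Amn (3.36) was highest. The endoderm libraries also held 5 of 5 ectoderm markers, at a summed 233 to 282 CPM against at most 43.9 in the other libraries, and node and notochord markers at 135 to 206 CPM against at most 12.03.

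**Figure D1:**
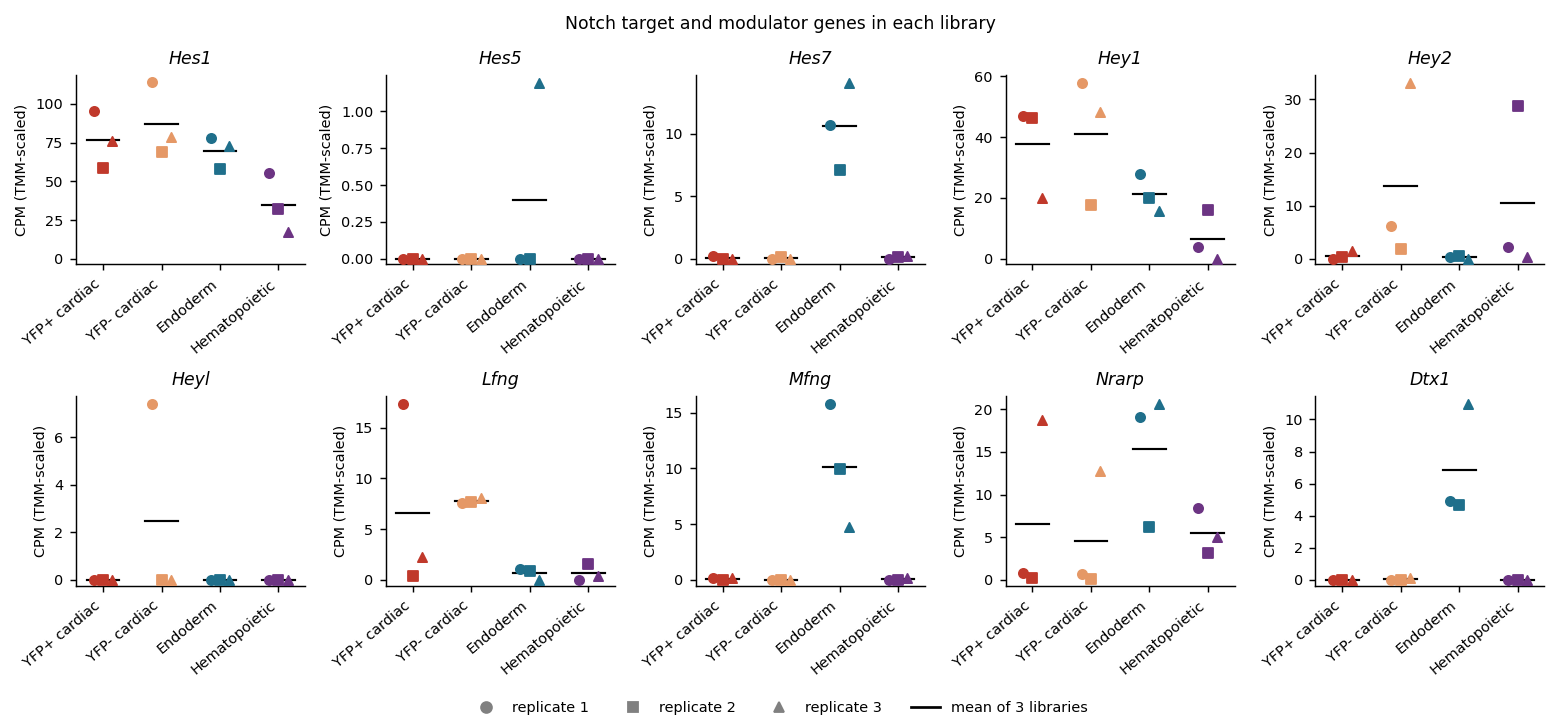
Level of each of the 10 genes in each library, in TMM-scaled CPM on a linear axis that differs between panels, by cell type. Symbols stand for replicates 1 to 3 and the black line for the mean of 3 libraries; Hes7, Mfng and Dtx1 lie between 4.66 and 15.7 CPM in endoderm and at or under 0.210 CPM in the other types.

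Hes7, Mfng and Dtx1 were read almost only in endoderm. The first encodes a repressor known from the segmentation clock, the second the Manic Fringe enzyme and the third the Deltex ligase. Each had at least 31 counts in every endoderm library and at most 1 count in each of the other 9 libraries. That pattern, over 3 counts in all endoderm libraries and at most 1 in all others, was chosen after the values were seen and held for 0.988% of the 14170 genes tested.

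Hes7 (ENSMUSG00000023781.2, chr11:69120404-69124055, plus strand) had 67, 55 and 118 counts in endoderm replicates 1, 2 and 3, or 10.7, 7.12 and 14.02 CPM. It had 1, 0 and 0 counts in YFP+ cardiac mesoderm, 0, 1 and 0 in YFP- cardiac mesoderm and 0, 1 and 1 in hematopoietic mesoderm. The endoderm libraries did not overlap those of any other type. From the summed counts Hes7 was 168-fold higher in endoderm than in the YFP+ fraction (exact binomial 95% interval 29.9 to 6662), 214-fold higher than in the YFP- fraction (38.1 to 8493) and 78.6-fold higher than in hematopoietic mesoderm (21.5 to 653). The intervals leave out the spread between libraries.

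The fitted log2 fold changes of Hes7 against endoderm were -6.93 ± 1.79 (SE) for the YFP+ and -7.27 ± 1.79 for the YFP- fraction, with edgeR adjusted p of 0.0763 and 0.0739. Between endoderm and hematopoietic mesoderm the value was 6.13 ± 1.70 (edgeR adjusted p = 0.0531). None of the 3 passed the threshold of 0.05, and all 3 did in DESeq2, in limma voom with quality weights and in a fit restricted to both types of the pair, where the adjusted p ran from 0.000407 to 0.0304. Part of Hes7, 234 exon bases, overlaps 9130213A22Rik on the other strand, which had 5, 75 and 0 counts in the endoderm libraries and 23 in YFP+ replicate 1. Whether counting used the strand is not given in the sources used here, and the part of this overlap in the Hes7 counts was not tested.

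Mfng (ENSMUSG00000018169.6, chr15:78755882-78773475, minus strand) had 99, 77 and 40 counts in endoderm, or 15.7, 9.97 and 4.75 CPM. It had 1, 0 and 1 counts in the YFP+ fraction, 0 in all 3 libraries of the YFP- fraction, and 0, 0 and 1 in hematopoietic mesoderm. Every endoderm library was above every other library. Mfng was at least 22.4-fold higher in endoderm than in the YFP- fraction, computed against 3 counts in each library, 75.6-fold higher than in the YFP+ fraction (95% interval 20.7 to 628) and 141-fold higher than in hematopoietic mesoderm (25.1 to 5613). Its log2 fold change against endoderm was -6.08 ± 1.73 in the YFP+ and -8.95 ± 1.97 in the YFP- fraction. In the edgeR fit the adjusted p was 0.107 against the YFP+ fraction, 0.0564 against the YFP- fraction and 0.0520 against hematopoietic mesoderm. DESeq2 called the last 2 of these (adjusted p = 0.00770 and 0.0202), and limma voom and the fit of only 2 types called all 3.

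Dtx1 (ENSMUSG00000029603.9, chr5:120680202-120711927, minus strand) was read at 31, 36 and 92 counts in endoderm, or 4.93, 4.66 and 10.9 CPM. Outside endoderm a single read was found, in YFP- cardiac mesoderm replicate 3. In all YFP+ cardiac and all hematopoietic libraries it was at 0, and endoderm exceeded them by at least 11.9-fold and 11.0-fold, computed against 3 counts in each library. Against the YFP- fraction the ratio was 142 (95% interval 25.1 to 5638). Dtx1 was the 1 member of 10 that passed in any pair of types: endoderm was higher than the hematopoietic libraries (edgeR adjusted p = 0.0476). In that pair 5.65% of all genes passed, and 3.23% of all genes passed with endoderm higher. Dtx1 entered the test only through its endoderm counts, which limits what the call shows. The call was lost with the replicate number as a block (adjusted p = 0.0945), with RLE scaling (0.0503), without the expression filter (0.0770), in DESeq2 (0.102) and whenever 1 of the 6 libraries of the pair was left out (0.0825 to 0.159). Against the cardiac fractions the edgeR adjusted p was 0.0840 and 0.138.

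A joint test asked whether a gene differed anywhere among the 4 types, without choosing a pair. Hes7, Mfng and Dtx1 passed (edgeR adjusted p = 0.0163, 0.0192 and 0.0283), as did 6.03% of all genes. The other 5 tested members had adjusted p from 0.191 for Hey2 to 0.886 for Nrarp. Since Hes7, Mfng and Dtx1 entered the test only through their endoderm counts, their number among the 8 members tested is a description and supports nothing. All 3 calls were lost with the replicate block (adjusted p = 0.0529, 0.0598 and 0.0816), and those of Hes7 and Mfng also without any 1 endoderm library (0.0670 to 0.107). Dtx1 lost its call in DESeq2 and in 6 of 12 fits that left out 1 library, all of them endoderm or YFP- cardiac libraries (0.0648 to 0.135). The 3 genes rose and fell together over the 12 libraries, with Pearson r of log2 CPM of 0.963 for Hes7 and Mfng, 0.982 for Hes7 and Dtx1 and 0.939 for Mfng and Dtx1, which mostly restates that 3 libraries held them and 9 did not. Within endoderm they were ordered differently, since Mfng was highest in replicate 1 and Hes7 and Dtx1 in replicate 3.

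The same endoderm libraries held the node, notochord and ectoderm markers given above and the most detected genes. Extraembryonic ectoderm markers summed to 6.47 to 44.9 CPM in endoderm and to at most 11.8 elsewhere. On that list Elf5 was at 8.59, 5.18 and 35.3 CPM in endoderm replicates 1, 2 and 3, and Esx1 at 2.07, 0 and 0.119 CPM. Tfap2c was at 6.84, 1.29 and 9.15 CPM there and at 11.7 CPM in YFP+ replicate 3. Foxj1, which drives motile cilia, was at 57.9 to 95.9 CPM in endoderm and at most 0.925 elsewhere. The node gene Noto was at 10.6 to 25.4 CPM against at most 0.185, and Chrd at 49.1 to 83.4 CPM against at most 0.693. Of the same list, Shh was at 11.1 CPM in endoderm replicate 1 and at most 0.259 in the other endoderm libraries, and Nog was higher in YFP+ replicate 3 (10.4 CPM) than in any endoderm library (at most 1.59). The ectoderm gene Sox2 was at 7.95 to 16.5 CPM against at most 1.68. Markers of the paraxial mesoderm, where Hes7 is known to oscillate, summed to 11.1 to 16.4 CPM in endoderm and to 9.89 to 43.6 CPM in the cardiac fractions. On that list Msgn1 was at most 0.159 CPM in endoderm, while Tcf15 was at 2.07, 9.97 and 2.496 CPM there against at most 1.93 elsewhere, and Meox1 was at 1.75, 0.129 and 4.16 CPM there and at 0 in all other libraries. The part of these other cell types in the levels of Hes7, Mfng and Dtx1 was not tested. In sorted bulk samples fewer cells of a type and less RNA per cell cannot be told apart.

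**Figure D2:**
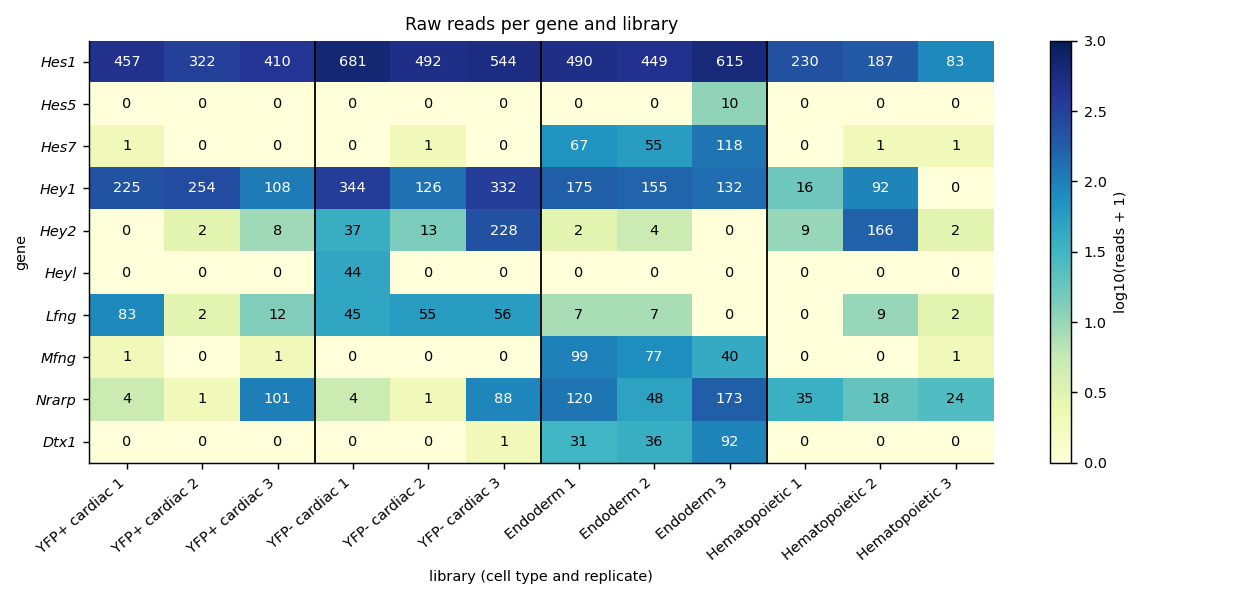
Raw reads of each gene (rows) in each library (columns), with colour on a log10(reads + 1) scale and the number of reads printed in each field. Hes1 is read in all 12 libraries with 83 to 681 counts, Hes7, Mfng and Dtx1 in endoderm, and Nrarp reaches 101 and 88 counts in replicate 3 of the cardiac fractions against 1 to 4 in their replicates 1 and 2.

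Hes1 was the most abundant member in every type. It encodes the HES repressor with the widest use in the embryo, and Hey1, next in abundance in 3 types, encodes a related repressor. Both had their lowest mean in hematopoietic mesoderm, and neither difference passed the edgeR threshold.

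Hes1 (ENSMUSG00000022528.7, chr16:30064384-30067796, plus strand) stood at 95.1, 58.7 and 75.9 CPM in YFP+ cardiac mesoderm replicates 1, 2 and 3 and at 114, 68.9 and 78.8 CPM in the YFP- fraction. It was at 77.9, 58.1 and 73.1 CPM in endoderm and at 55.4, 32.4 and 17.4 CPM in hematopoietic mesoderm. The first 3 types overlapped one another, and every hematopoietic library was below every library of the other types. The log2 fold change against hematopoietic mesoderm was 1.13 ± 0.46 (SE) for the YFP+ fraction, 1.32 ± 0.46 for the YFP- fraction and 0.99 ± 0.45 for endoderm (edgeR adjusted p = 0.199, 0.179 and 0.213). Among the alternative fits, DESeq2 alone called 1 of these, that of the YFP- fraction (adjusted p = 0.0433). The lowest value was that of hematopoietic replicate 3, and without it the 3 log2 fold changes were 0.81, 0.998 and 0.67. Between the cardiac fractions the log2 difference was -0.19, with an approximate 95% interval from -1.22 to 0.85, and it turned to 0.035 without YFP- replicate 1.

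Hey1 (ENSMUSG00000040289.3, chr3:8663359-8667256, minus strand) was read at 46.8, 46.3 and 20.0 CPM in the YFP+ fraction, at 57.6, 17.7 and 48.1 CPM in the YFP- fraction and at 27.8, 20.1 and 15.7 CPM in endoderm. In hematopoietic mesoderm it was at 3.85, 15.9 and 0 CPM, where 0 counts in replicate 3 allow up to 0.630 CPM. The cardiac libraries lay above all hematopoietic libraries, while endoderm overlapped both. Its log2 fold change against hematopoietic mesoderm was 2.504 ± 1.18 for the YFP+ and 2.63 ± 1.18 for the YFP- fraction (edgeR adjusted p = 0.262 and 0.273), and no alternative fit called it. Without hematopoietic replicate 3, the library at 0, these were 1.92 and 2.05, and without replicate 2 they were 4.30 and 4.42. The fractions differed by -0.13 on the log2 scale (interval -2.68 to 2.43), a value that turned to 0.18 without YFP+ replicate 3 and to 0.19 without YFP- replicate 1. Hes1 and Hey1 correlated at a Pearson r of 0.845 across the 12 libraries. Hematopoietic replicate 3 was the lowest library of both genes, and the part of the differences between types in this r was not tested.

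Hey2 and Heyl encode the other HEY repressors. Hey2 (ENSMUSG00000019789.8, chr10:30832359-30842801, minus strand) is known as a marker of the compact ventricular wall later in development. It had 0, 2 and 8 counts in the YFP+ fraction, which the labels call ventricular, and 37, 13 and 228 in the YFP- fraction, or 0 to 1.48 against 1.82 to 33.02 CPM. The 2 fractions did not overlap, as was the case for 12.1% of all genes, and Hey2 was the 1 member of which this was so. Its log2 fold change was -4.42 ± 1.98 (interval -8.98 to 0.14, edgeR adjusted p = 0.646), and it was -2.68 without YFP- replicate 3. No alternative fit called it.

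Endoderm held 2, 4 and 0 counts of Hey2, below every YFP- cardiac library (log2 fold change 5.53 ± 2.08, edgeR adjusted p = 0.298). DESeq2 and limma voom called this difference (adjusted p = 0.0426 and 0.0128). In hematopoietic mesoderm 1 library held nearly all the reads, with 9, 166 and 2 counts, or 2.17, 28.7 and 0.420 CPM. The log2 difference of endoderm minus hematopoietic mesoderm was -5.14 (edgeR adjusted p = 0.150) and -2.13 without hematopoietic replicate 2, and DESeq2 called it (0.0329). The highest 2 types, the YFP- fraction and hematopoietic mesoderm, thus rested on 1 library each for most of their level.

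Heyl (ENSMUSG00000032744.4, chr4:123233556-123249875, plus strand) was detected in 1 of 12 libraries, YFP- cardiac replicate 1, at 44 counts or 7.37 CPM. It was at 0 in the other 11, which allows up to 0.357 to 0.723 CPM there. Hes5 (ENSMUSG00000048001.7, chr4:154960923-154962371, plus strand), a main Notch target of the later nervous system, was likewise detected in 1 library, endoderm replicate 3, at 10 counts or 1.19 CPM. These 2 members did not pass the expression filter, which requires reads in several libraries, and were not tested.

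Lfng and Mfng, both Fringe genes, had their highest means in different types, Mfng in endoderm and Lfng in the cardiac fractions. Lfng (ENSMUSG00000029570.1, chr5:140607320-140615545, plus strand) was even among the YFP- cardiac libraries, at 7.54, 7.71 and 8.11 CPM. It was uneven in the YFP+ fraction, at 17.3, 0.365 and 2.22 CPM, and low in endoderm, at 1.11, 0.906 and 0 CPM, and in hematopoietic mesoderm, at 0, 1.56 and 0.420 CPM. Every YFP- library exceeded every endoderm and every hematopoietic library. The log2 fold change of the YFP- fraction was 3.50 ± 1.79 against endoderm and 3.50 ± 1.80 against hematopoietic mesoderm (edgeR adjusted p = 0.590 and 0.342). Of the alternative fits, limma voom called the first of these (adjusted p = 0.0189) and none the second. Between the cardiac fractions the difference was -0.24 (interval -3.96 to 3.49), and it turned to 0.32 and 0.18 without YFP+ replicate 2 and replicate 3.

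Lfng is also a gene of the paraxial mesoderm. The paraxial markers summed to 9.89 to 43.6 CPM in the YFP- fraction, 20.7 to 31.0 in the YFP+ fraction and 0.693 to 3.99 in hematopoietic mesoderm. The markers did not run one way between the fractions. Msgn1 was at 1.01, 11.3 and 7.39 CPM in the YFP- libraries and at most 0.182 CPM in the YFP+ libraries, whereas Mesp2 was at 12.7, 30.6 and 11.1 CPM in the YFP+ and at 7.37, 6.87 and 22.7 CPM in the YFP- libraries. Ripply2 was read in 1 library of the 12, YFP+ replicate 1, at 7.49 CPM, the library with the highest Lfng. Meox1 was at 0 in both fractions. Their part in the Lfng level was not tested.

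Nrarp (ENSMUSG00000078202.2, chr2:25180758-25183339, plus strand), the feedback inhibitor, split the cardiac libraries by replicate number rather than by fraction. The YFP+ libraries were at 0.832, 0.182 and 18.7 CPM and the YFP- libraries at 0.670, 0.140 and 12.7 CPM, so that replicate 3 was high in both fractions. Replicates with the same number carry the same date in the names of the deposited tables, although what the date stands for is not stated. Endoderm was at 19.1, 6.21 and 20.6 CPM and hematopoietic mesoderm at 8.43, 3.12 and 5.04 CPM, with no such gap. Genes with 50 counts or more in replicate 3 and 5 or fewer in replicates 1 and 2 of both fractions were 0.0282% of all genes, a rule set after seeing Nrarp. They were Nrarp and 3 others, among them Itgae, an integrin gene.

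No pair of types differed in Nrarp past the threshold. Endoderm had the highest mean, and against it the log2 fold change was -1.22 ± 1.65 for the YFP+ and -1.75 ± 1.67 for the YFP- fraction (edgeR adjusted p = 0.849 and 0.989). Without YFP+ replicate 3 the first was -4.87, and without YFP- replicate 3 the second was -5.19, with adjusted p of 0.262 and 0.418. The cardiac fractions differed by 0.54 (interval -3.23 to 4.31), and this turned to -3.12 without YFP+ replicate 3 and to -0.029 without YFP- replicate 2. Of the single exon of Nrarp, 2051 of 2582 bases overlap Gm38287 on the other strand, a gene with no row in the tables used here.

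**Figure D3:**
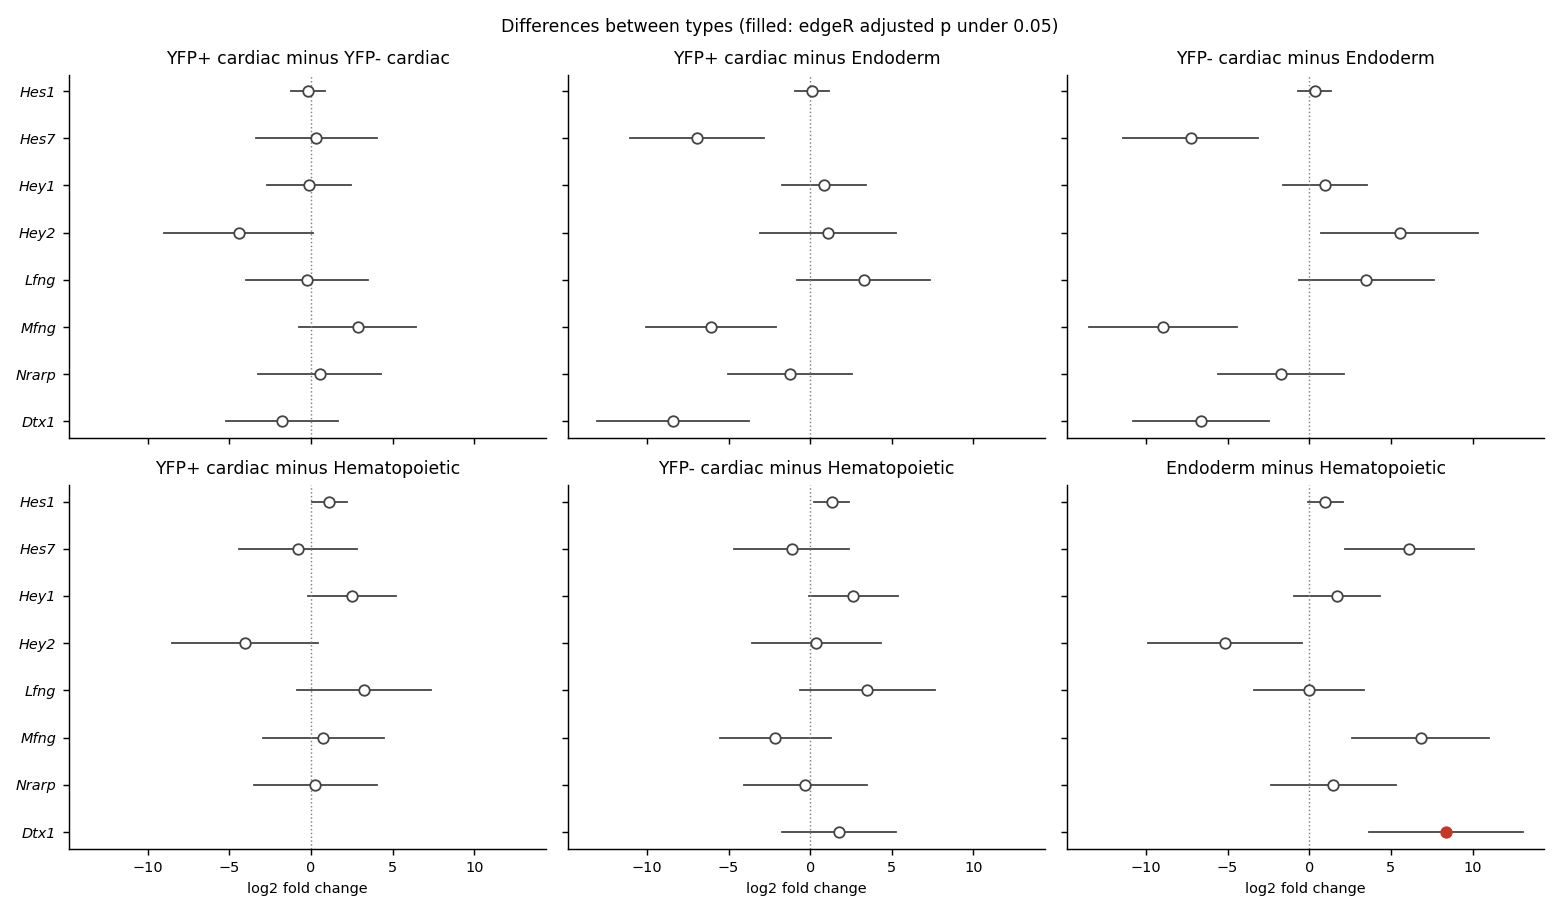
Log2 fold change (horizontal axis, first type minus second) of the 8 tested genes in each of the 6 pairs of types, with approximate 95% intervals from the standard error and 8 residual degrees of freedom; Dtx1 has no value between YFP+ cardiac and hematopoietic mesoderm, where all libraries are at 0. The 1 filled point, Dtx1 between endoderm and hematopoietic mesoderm, passed after adjustment over all genes; the intervals are not adjusted, and those of Hes7, Mfng and Dtx1 lie away from 0 in all 3 comparisons with endoderm.

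Between the cardiac fractions, the comparison closest to the question of the series, 0 of the 10 members passed in edgeR and 0 of 14170 genes did (0%). DESeq2 called 0 members and 117 genes, or 0.885% of those to which it gave an adjusted p, the base of each DESeq2 share given here. Limma voom called 0 members and 0 genes. At an unadjusted p under 0.05 there was 1 member, Hey2, where 7.49% of all genes reached that level. Of the 8 tested members 3 were higher in the YFP+ and 5 in the YFP- fraction, and their median log2 difference was -0.16 beside 0.03 for all genes. Hes7 (1 read in each fraction) and Mfng (2 against 0) were among the 3, and Dtx1 (0 against 1) among the 5. At such counts their directions, and so this tally and median, carry little information. All 8 intervals held 0. The interval of Hey2 did so despite its unadjusted p, since the intervals use only 8 residual degrees of freedom and are wider than the edgeR test implies. That of Hes1 was the narrowest (-1.22 to 0.85), and that of Mfng, with 2 reads in one fraction and 0 in the other, ran from -0.71 to 6.45, so differences of several fold were not detectable for most members at this spread.

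Against endoderm, 0 members passed in edgeR for either fraction, where 1.54% of all genes passed for the YFP+ and 1.31% for the YFP- fraction. By unadjusted p under 0.05 there were 3 and 4 members, with 15.8% and 10.3% of all genes. DESeq2 called 1 and 3 members, with 7.03% and 4.48% of all genes, and limma voom 3 and 5, with 7.97% and 12.8% of all genes. Hes7, Mfng and Dtx1 had libraries that did not overlap in both comparisons, and Hey2 and Lfng in that of the YFP- fraction, where 30.3% and 29.4% of all genes did not overlap. Hes7, Mfng and Dtx1 entered the tests only through their endoderm counts. The numbers of members given here are thus a description and support nothing.

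Against hematopoietic mesoderm, 0 members passed in edgeR for either fraction, with 1.79% and 0.593% of all genes. At an unadjusted p under 0.05 there were 1 and 2 members, and 19.5% and 17.4% of all genes. DESeq2 called 0 and 1, with 11.4% and 8.33% of all genes, and limma voom 0 in both, where it called only 0.127% and 0.67% of all genes. Hes1 and Hey1 did not overlap in either comparison and Lfng in that of the YFP- fraction, as held for 14% and 18.6% of all genes. These pairs share their control libraries with each other and with the pair of endoderm and hematopoietic mesoderm, where Hes1, Hes7, Mfng and Dtx1 did not overlap and 34.3% of all genes did not. In that last pair 5 members and 22.8% of all genes had an unadjusted p under 0.05. Hes7, Mfng and Dtx1 were among these 5, and the limit given above for them holds here too.

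**Figure D4:**
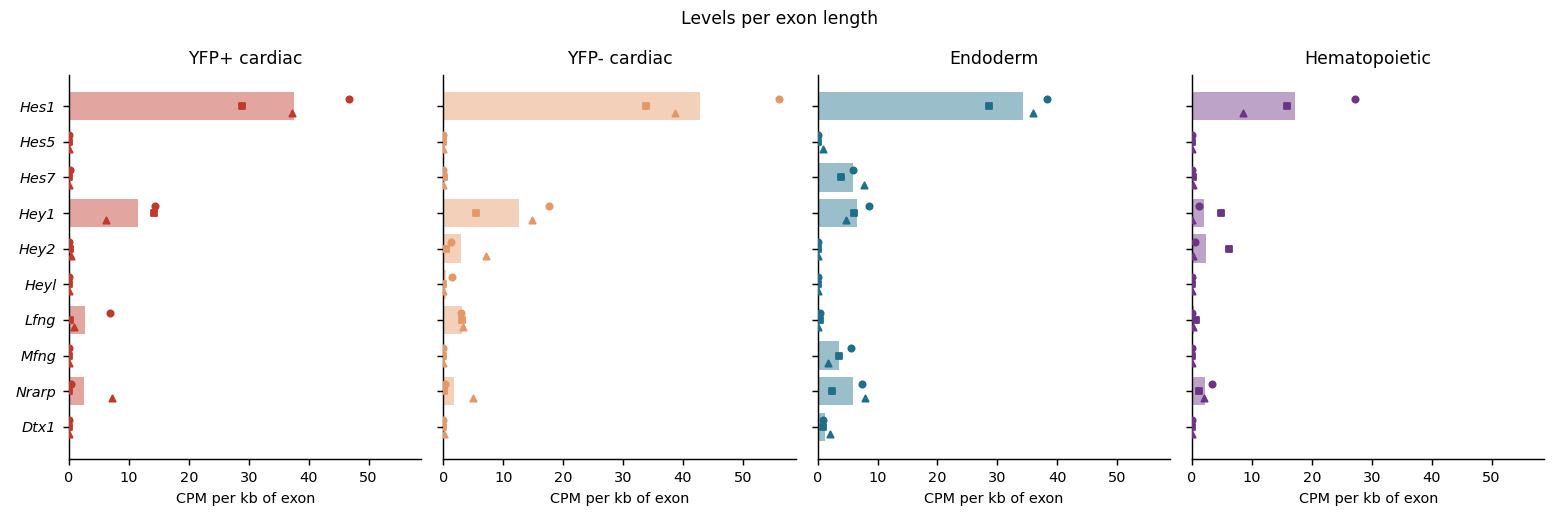
Mean CPM per kilobase of exon (bars, linear axis from 0) of the 10 genes in each cell type, with points for the libraries (circle, square and triangle for replicates 1, 2 and 3). Hes1 has the longest bar in every type, from 17.2 in hematopoietic to 42.8 in YFP- cardiac mesoderm, and Hes7, Mfng and Dtx1 have visible bars in endoderm.

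Levels of different genes were compared per kilobase of exon in the GENCODE M21 annotation. Hes1 led in all 4 types, with 37.6 ± 8.95 CPM per kilobase (SD, n = 3) in the YFP+ fraction, 42.8 ± 11.7 in the YFP- fraction, 34.2 ± 5.07 in endoderm and 17.2 ± 9.39 in hematopoietic mesoderm. Hey1 was second in the first 3 types, at 11.5 ± 4.70, 12.6 ± 6.40 and 6.49 ± 1.88 CPM per kilobase. In endoderm Nrarp (5.92 ± 3.06) and Hes7 (5.86 ± 1.91) were within 1 SD of Hey1, followed by Mfng (3.58 ± 1.94) and Dtx1 (1.30 ± 0.67). In hematopoietic mesoderm Hey2, Nrarp and Hey1 had means from 2.02 to 2.27 CPM per kilobase and could not be ranked within their spread. After Hey1 the order of Lfng, Nrarp and Hey2 in the cardiac fractions could not be told within the spread either. In the YFP+ fraction Lfng was at 2.64 ± 3.70 CPM per kilobase, resting on replicate 1 (6.90 against 0.146 and 0.887), and Nrarp at 2.54 ± 4.07. In the YFP- fraction Lfng was at 3.11 ± 0.117, Hey2 at 2.98 ± 3.68 and Nrarp at 1.75 ± 2.76. Every YFP- library was higher in Lfng than any YFP- library was in Heyl, Hes7, Dtx1, Hes5 or Mfng. In level, Hes1 was at percentile 71.0 of the tested genes by its mean CPM over 12 libraries, Hey1 at 51.5 and Dtx1 at 6.63.

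The genes most like each member in their pattern over the 12 libraries were named by Pearson correlation of log2 CPM, as a description. Hes7 was closest to Klhl14 (r = 0.991) and Zmat4 (0.991), and Mfng to Adamts15 (0.997) and Iqub (0.994), with 258 and 247 genes above 0.9. Hes1 was closest to Ptpn4 (0.943) and Fbrsl1 (0.942), and Hey1 to Slc25a39 (0.968) and Pik3r4 (0.953). For Hey2 the first were Dusp2 (0.877) and Ppih (0.828), and for Nrarp Crybg1 (0.839) and Gars (0.836), with no gene above 0.9 for either. The 12 points share types, depth and dates, and no p is given.

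Of 47 other Notch pathway genes, 43 were tested. None differed between the cardiac fractions in edgeR, 4 had an unadjusted p under 0.05, and DESeq2 called 1, Maml3, a coactivator of the RBPJ complex. Between endoderm and hematopoietic mesoderm 2 of the 43 were higher in endoderm and 4 lower, beside 5.65% of all genes called in that pair, with a median log2 difference of 0.10 over the list and 0.07 over all genes. The ligand genes Dll1 and Dll3 were higher in endoderm, by 5.97 ± 1.03 and 5.29 ± 1.16 on the log2 scale (edgeR adjusted p = 0.00661 and 0.0238). They averaged 14.2 ± 10.4 and 6.35 ± 4.47 CPM (SD) in endoderm and 0.208 and 0.150 CPM in hematopoietic mesoderm. The latter lie under the 3-count floor, so the size of these differences is uncertain. The receptor genes Notch1 and Notch2 were lower in endoderm, at -2.67 ± 0.43 and -1.18 ± 0.23 (edgeR adjusted p = 0.00482 and 0.0133). Mib1, a ligase that sets ligand activity, and Poglut1, which adds glucose to the receptor, were also lower in endoderm, at -0.59 ± 0.16 and -1.13 ± 0.30 (edgeR adjusted p = 0.0468 and 0.0435).

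The cardiac fractions differed from endoderm in 1 of these 43 genes each, Notch1, which was higher. They differed from hematopoietic mesoderm in 2 each, Dll1 and Dll3, both higher and, as above, against hematopoietic levels under the floor. The shares of all genes called were 1.54% and 1.31% against endoderm and 1.79% and 0.593% against hematopoietic mesoderm. With the replicate block the count for the YFP- fraction against hematopoietic mesoderm was 1, Dll1. Median log2 differences over the list ran from -0.06 to 0.16 in the 5 pairs with a cardiac fraction, beside 0.01 to 0.03 over all genes. No other ligand gene that was tested passed in any pair. Jag1 ranged from 32.1 to 184 CPM in the YFP+ and from 21.1 to 28.4 in the YFP- fraction, from 75.6 to 148 in endoderm and from 0.346 to 71.2 in hematopoietic mesoderm, while Dll4, not tested, reached 0.713 CPM in 1 endoderm library and was at 0 elsewhere. Among relatives of the members, Rfng, the remaining Fringe gene, averaged 1.97 ± 2.66 CPM in the YFP+ fraction, 6.87 ± 2.31 in the YFP- fraction, 12.6 ± 4.16 in endoderm and 7.89 ± 9.45 in hematopoietic mesoderm. Dtx4, a relative of Dtx1, averaged 17.4 ± 7.51 CPM in endoderm, 5.74 ± 9.94 in hematopoietic mesoderm, where 1 library reached 17.2, 1.40 ± 1.74 in the YFP- and 0.131 ± 0.114 in the YFP+ fraction. Hes2 and Hes3 were at 0 in all 12 libraries.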

How the data were processed

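The authors deposited raw read counts per gene, whole numbers that were not normalized, with 5 summary categories per library; genes took 18.3% to 21.5% of tallied reads, and the summary categories were left out. Per the submitters' processing notes, which give no roles, STAR 2.5.0a, Picard, HTSeq 0.6.0, DESeq2 and the build mm10 were named; the annotation release and the strand setting are not given in the sources used here. Symbols were matched for 37607 of 38924 identifiers. Positions and exon lengths came from GENCODE M21 (GRCm38) and promoter windows from RefSeq (GRCm38.p6). RNA was purified and amplified with low-input kits, per the labels' protocols.

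Counts were fitted with edgeR 4.0.16 in R 4.3.3 (quasi-likelihood test, TMM scaling, default expression filter, 14170 genes and 8 of the 10 members kept), with 1 coefficient per type over all 12 libraries and no block. Tests were two-sided and p-values were adjusted by Benjamini-Hochberg over all genes tested, with a threshold of 0.05. Standard errors come from the log2 fold change and the F statistic. The alternatives were DESeq2 1.42.0, limma 3.58.1 voom with quality weights, a block for the replicate number, RLE scaling, a fit restricted to the 2 types of a pair, filters at a mean of 5 CPM or none, and the omission of each library. The procedures were tested on simulated data. The approximate 95% intervals use 8 residual degrees of freedom. Same-numbered libraries carry the same date in the names of the deposited tables, which was taken as the pairing; their deviations from the type means correlated at -0.0177 to 0.0319 over 18 pairs. No libraries had identical counts.

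All 10 members were named. Of the other pathway genes, those called in a pair with a called member, the receptors and ligands were eligible. The 2 most similar genes were named for members with at least 10 CPM in some type. The members, the lists of pathway and marker genes and the tests were chosen with earlier results of these data known, and the lists come from general knowledge.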

Additional observations from a re-analysis of the deposited data

How the results depend on the processing

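For YFP+ cardiac mesoderm against endoderm the number of members called went from 0 to 1 in DESeq2 and to 3 in limma voom and in a fit of only the 2 types, and for the YFP- fraction from 0 to 3, 5 and 3. Over all genes the share called rose too, from 1.54% to 7.03%, 7.97% and 8.28%, and from 1.31% to 4.48%, 12.8% and 10.1%. The members counted in comparisons with endoderm include Hes7, Mfng and Dtx1, which entered the tests only through their endoderm counts. For the YFP- fraction against hematopoietic mesoderm DESeq2 gave 1 (8.33% of all genes, from 0.593%). Between endoderm and hematopoietic mesoderm the count of 1 became 3 under each of these 3 methods (14.4%, 8.65% and 9.89% of all genes, from 5.65%) and 0 under RLE scaling, without a filter, at a minimum mean of 5 CPM (which left out Hes7, Mfng and Dtx1) and with the replicate block. The joint test of 4 types fell from 3 to 0 at the 5 CPM minimum and with the block. Leaving out 1 library gave 0 in every pair and 0 to 3 in the joint test.

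Of the other pathway genes DESeq2 called 1 between the fractions. Against endoderm DESeq2, limma voom and the fit of 2 types called 3, 5 and 3 for the YFP+ and 2, 6 and 6 for the YFP- fraction, where the main count was 1. Against hematopoietic mesoderm, where it was 2, the YFP+ fraction had 4 without a filter, 0 in limma voom and 1 with 2 types; the YFP- fraction had 1 with the block, 4 in DESeq2, 0 in limma voom and 1 with 2 types. Leaving out 1 library gave 0 between the fractions, 0 to 1 against endoderm, 2 to 3 and 1 to 3 against hematopoietic mesoderm and 2 to 7 between endoderm and hematopoietic mesoderm. The causes were not tested.

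Of the log2 fold changes of single members under all alternatives, 305 kept direction and call, 26 became called, 10 lost the call and 7 turned sign, the last all between the cardiac fractions, uncalled and with 1 library left out. There Hes1 turned to 0.035 (range -0.37 to 0.035), Hey1 to 0.18 and 0.19 (-0.49 to 0.19), Lfng to 0.32 and 0.18 (-2.57 to 0.32) and Nrarp to -3.12 and -0.029 (-3.12 to 3.94). The replicate block ended the call of Dtx1 between endoderm and hematopoietic mesoderm (adjusted p = 0.0945) and the 3 joint calls, and changed no other call of a single member that was refitted. At 3 counts per library, levels under 0.357 to 0.723 CPM were not detectable.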
